A study of Mus musculus with 20 samples.

Results

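A set of 10 genes, of 32285 in the files, that are read as output of the ERK pathway was followed across the cell classes of the mouse hippocampus in wakefulness and anesthesia. It holds the transcription factors Etv1, Etv4 and Etv5, the inhibitors Spry2, Spry4, Spred1 and Spred2, and the phosphatases Dusp4, Dusp5 and Dusp6. The set was chosen by the measured levels of Etv1, Etv5 and Spry2, which were low under ketamine in CA1 nuclei of these mice. For this reason ketamine against wake is given as a description with no test, and isoflurane against wake and the genotypes are tested. The wake mice are shared by both comparisons.

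Single-nucleus RNA sequencing was done on the hippocampi of 20 male mice aged 4.5 to 5.5 months, 1 library per mouse. Wild-type (WT) mice and littermates carrying the APP/PS1 transgenes (APPSwe and PS1ΔE9, a familial Alzheimer's disease model) were taken awake (6 WT and 3 APP/PS1), after 3 h of isoflurane started at 5% and kept at 1.5% (3 WT and 4 APP/PS1), or after 3 h of ketamine at 150 mg/kg with xylazine at 12 mg/kg (2 WT and 2 APP/PS1). Ketamine was always given together with xylazine, so the agents cannot be told apart. Mice are called by their numbers in the labels, and genotype is the labelled one: Prnp, whose promoter drives the transgenes, ranged from 65.3 to 475 CPM in CA1-like nuclei of mice labelled APP/PS1 and from 42.0 to 184 CPM in those labelled WT, so the ranges overlapped. The medians were 185 CPM (APP/PS1, n = 9) and 74.8 CPM (WT, n = 11). The design text of the series also gives other numbers of WT and APP/PS1 mice than the labels, in wake and under isoflurane alike, so each genotype and interaction result rests on labels that are in doubt.

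The libraries held 160777 nuclei and 9243992 to 25394891 UMIs (unique molecular identifiers, 1 per captured RNA molecule) each. Mice 1 to 4 stood apart, with 0.939% to 1.78% mitochondrial UMIs against 0.0353% to 0.336% in the other 16. The 4 ketamine mice carry numbers 25 to 28, and mouse 29 is the only wake mouse in that run of numbers. Results are therefore also given without mice 1 to 4, and ketamine also against mouse 29. Of all barcodes 3251 occurred in more than 1 library, at most 0.407% of a library for any pair.

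ERK is the last kinase of a relay that starts at growth factor receptors and at calcium entry in active neurons, and passes through Ras, Raf and MEK. Active ERK raises transcription of its own brakes. Spry and Spred proteins act on the relay upstream of ERK, Dusp4 and Dusp5 are phosphatases that remove phosphate from ERK in the nucleus, Dusp6 does so in the cytoplasm, and Etv1, Etv4 and Etv5 are ETS-family transcription factors of the PEA3 group.

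Promoter sequence was looked up for the members, because several of them moved together under isoflurane. RefSeq windows on GRCm38.p6 were found for 7 of 10 members; Etv4, Spry4 and Dusp4 had none. The 3 members called lower under isoflurane in the most neuronal classes are shown, each from 250 bases before the RefSeq start up to the first base of any annotated exon, 5′ to 3′ on the strand of the gene. Spred2 is shown for chr11:19924192-19924374 (+), Spred1 for chr2:117120821-117121070 (+) and Etv5, at the first of its 2 RefSeq starts, for chr16:22439720-22439820 (-).
Spred2: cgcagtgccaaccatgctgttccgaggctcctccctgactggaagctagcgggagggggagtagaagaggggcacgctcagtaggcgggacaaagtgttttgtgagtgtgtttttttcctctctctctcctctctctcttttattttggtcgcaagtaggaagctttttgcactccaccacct
Spred1: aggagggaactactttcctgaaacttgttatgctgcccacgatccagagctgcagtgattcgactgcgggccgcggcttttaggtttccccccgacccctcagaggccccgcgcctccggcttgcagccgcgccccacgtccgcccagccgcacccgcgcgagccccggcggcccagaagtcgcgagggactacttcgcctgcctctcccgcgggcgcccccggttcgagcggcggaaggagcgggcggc
Etv5: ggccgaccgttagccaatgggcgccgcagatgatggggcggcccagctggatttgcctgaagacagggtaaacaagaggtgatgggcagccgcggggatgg
On both strands of the 250 bases before each start, 3 motifs were searched: CCGGAA (an ETS site), TGACGTCA (CRE) and TGANTCA (AP-1). None of the 9 windows of the 7 members held a match, so no letters are in capitals. Of all 32851 promoter windows 12.0% held the first, 1.55% the second and 6.75% the third. No match says only that these letters are not in these windows.

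The members differed in where they were expressed in wake mice. Levels are UMI counts relative to the total of a class sum (CPM, scaled by the TMM method) and are compared between classes of the same gene only. Every order given is over the 12 fitted classes, and RNA shared between droplets was not separated from that of a class, so a low level is not shown to be expression. Etv1 was highest in a cluster of excitatory neurons led by Rxfp1 and Ndst4 (360 ± 97.97 CPM, SD, n = 8), a cluster that Etv1 itself helps to lead, followed by OPC-like nuclei (195 ± 24.7, n = 9) and CA1-like nuclei (127 ± 21.3, n = 9). Each of these steps exceeded the SD of the within-mouse difference. Of the fitted classes interneuron-like nuclei held the least Etv1 (21.5 ± 13.4 CPM, n = 9).
Etv4 was largely a glial transcript: 264 ± 81.9 CPM in OPC-like and 104 ± 30.0 CPM in astrocyte-like nuclei, against 7.04 ± 6.09 CPM in the next class, subicular or cortical excitatory-like nuclei (n = 9 each). Both steps exceeded their SD. Etv5 ran from 197 ± 63.8 CPM in OPC-like nuclei to 6.85 ± 2.41 CPM in DG granule-like nuclei (n = 9 each). Among its neighbours in that order only interneuron-like and CA3-like nuclei differed by more than the SD, by 0.84 ± 0.37 on the log2 scale.
Spry2 was highest in astrocyte-like nuclei (113 ± 14.4 CPM, n = 9), above OPC-like nuclei (46.2 ± 16.6) by more than the SD. Spry4 reached 40.7 ± 16.6 CPM in OPC-like nuclei and was 1.28 ± 0.79 CPM in CA1-like nuclei (n = 9 each).
Spred1 and Spred2 had UMIs in each of the 12 fitted classes, as did Etv4, Dusp4, Dusp5 and Dusp6. Among the fitted classes Spred2 was highest in CA1-like nuclei (277 ± 33.7 CPM) and lowest in oligodendrocyte-like nuclei (41.6 ± 17.1 CPM, n = 9 each). The last step in this order exceeded its SD, while the first did not. Dusp4 was highest in DG granule-like nuclei (9.60 ± 3.76 CPM, n = 9), and Dusp5 was between 8.79 and 11.8 CPM in 5 neuronal classes with overlapping spreads. Dusp6 was low in every fitted class. Microglia-like nuclei held the most (17.2 ± 13.6 CPM, n = 8, from 23 UMIs), and neither step below them exceeded its SD. CA1-like nuclei held 8.27 ± 2.46 CPM and astrocyte-like nuclei 9.77 ± 3.15 CPM (n = 9 each).

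**Figure D1:**
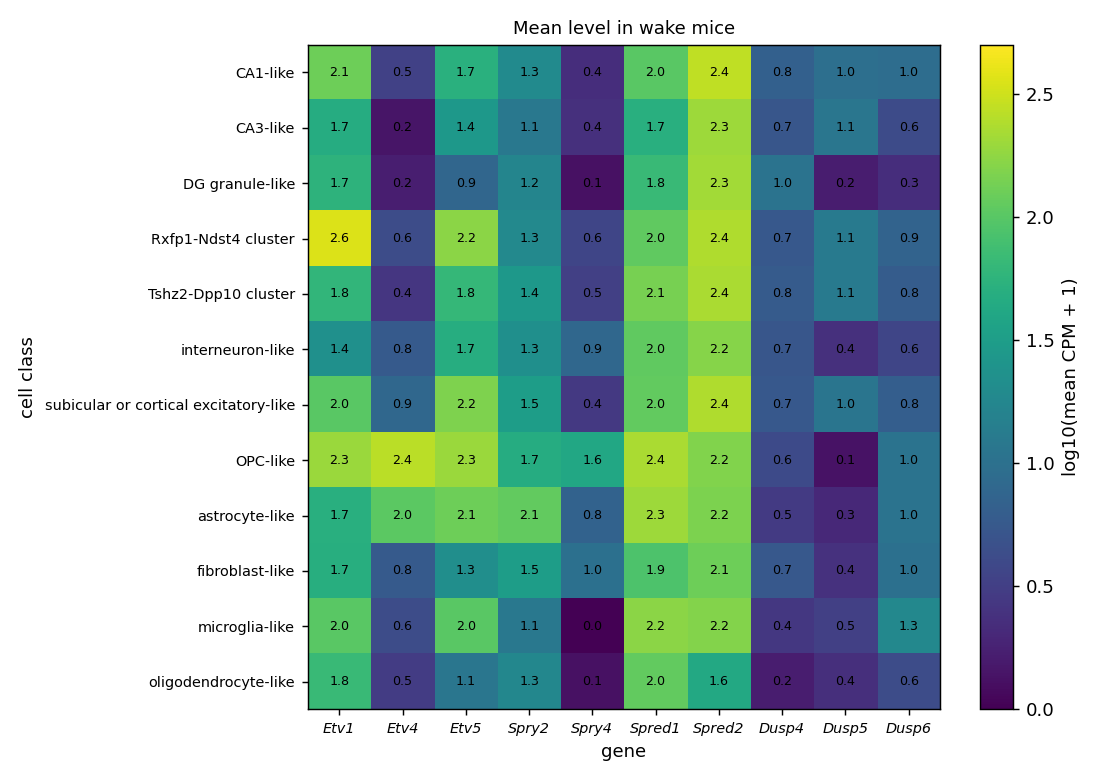
Mean level of each member (columns) in each fitted class (rows) over wake mice, as log10(mean CPM + 1), with the value printed in each cell. Etv4 and Spry4 are highest in OPC-like nuclei, Spry2 in astrocyte-like nuclei and Spred2 in CA1-like nuclei.

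After isoflurane, several members fell in neurons, led by Etv5, Spred1 and Spred2. Over 12 classes 72 member-by-class tests could be made, since a member had to pass a filter on low counts: Etv1, Spred1 and Spred2 passed in all 12, Etv5 and Spry2 in 11, Dusp5 in 4, Etv4, Dusp4 and Dusp6 in 3 and Spry4 in 1. Of these tests 25 were called (edgeR quasi-likelihood test, adjusted p below 0.05 over all genes of the class), all of them lower. Over all genes 3.5% of such tests were called, and 1.54% called lower. In neuronal classes the share called in either direction was 3.35% and in non-neuronal classes 3.8%. The 7 neuronal classes held 24 of the 25 calls among 45 tests (1.6% of all genes' tests there called lower) and the 5 non-neuronal classes held 1 among 27 (1.42%). Without mice 1 to 4, all 25 kept their direction and 17 were called. A low member passes the filter only where some group has enough counts, so these counts are not a test of the group.

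**Figure D2:**
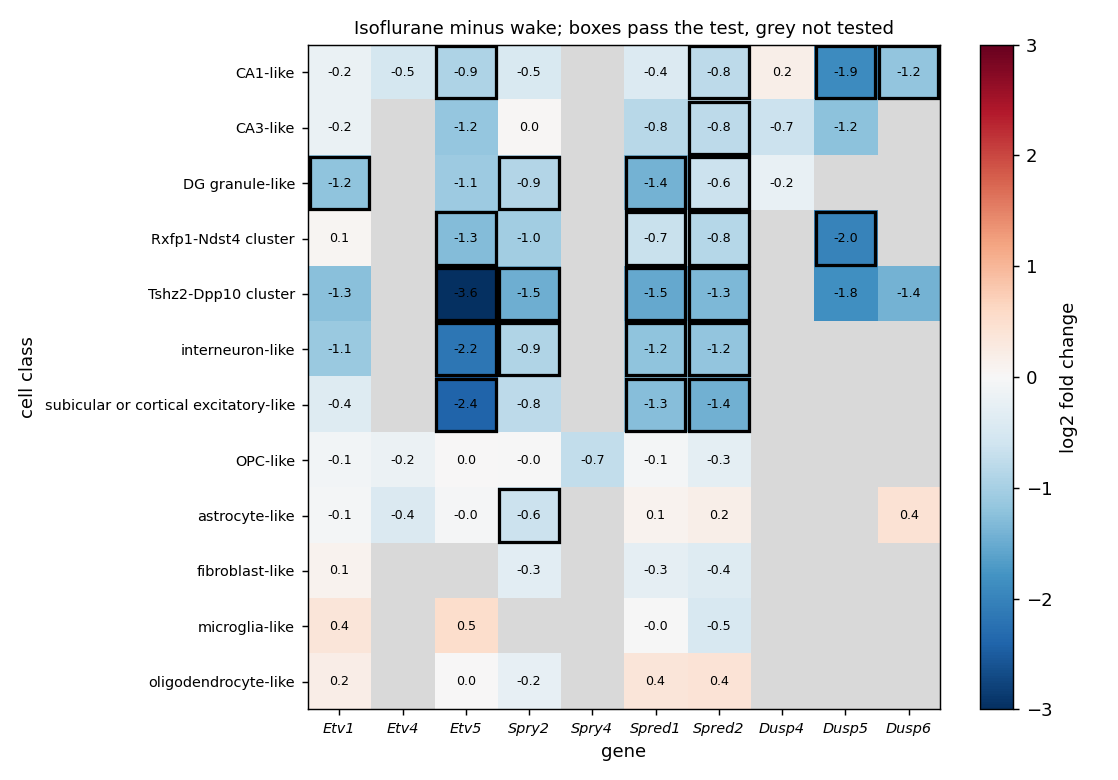
Log2 fold change of isoflurane against wake for each member (columns) in each fitted class (rows), neuronal classes above; boxes mark adjusted p below 0.05 and grey cells were not tested. The 25 boxes are all lower, and 24 of them lie in neuronal rows.

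In CA1-like nuclei 4 of 9 members tested were called lower, where 1.75% of all genes were. The median of the 9 log2 fold changes was -0.52, and that of all genes tested was 0.01. Dusp5 had the clearest separation. Its level in the wake mice was between 4.84 and 12.1 CPM (median 8.95, n = 9), and in the isoflurane mice between 1.13 and 3.97 CPM (median 2.25, n = 7). No isoflurane mouse reached the lowest wake mouse, and the log2 fold change was -1.90 ± 0.34 (SE, adjusted p = 0.00304, edgeR), with -1.65 without mice 1 to 4 (adjusted p = 0.0412). The sums behind it were small, 7 to 37 UMIs per wake mouse.
Dusp6 went from 5.09 to 11.5 CPM (median 8.95) in wake to 2.39 to 6.43 CPM (median 3.75) after isoflurane. The ranges overlapped, and the difference was -1.17 ± 0.28 (SE, adjusted p = 0.0195, edgeR). Without mice 1 to 4 it was -1.06 with an adjusted p of 0.107, and leaving out mouse 3 or 17 also ended the call (highest adjusted p 0.0552).
Spred2 was between 220 and 330 CPM (median 280) in wake mice and between 63.4 and 230 CPM (median 182) after isoflurane. The lowest isoflurane values belonged to mice 3 (63.4 CPM) and 4 (92.8 CPM). The log2 fold change was -0.79 ± 0.20 (SE, adjusted p = 0.0296, edgeR), and -0.50 without mice 1 to 4 (adjusted p = 0.0149); leaving out mouse 2 or 10 alone gave adjusted p up to 0.0723.
Etv5 was between 36.8 and 73.9 CPM (median 50.5) in wake mice and between 7.90 and 38.6 CPM (median 27.1) after isoflurane. Here too mice 3 and 4 were the lowest, at 7.90 and 17.9 CPM. The difference of -0.93 ± 0.25 (SE, adjusted p = 0.0389, edgeR) became -0.40 without mice 1 to 4 (adjusted p = 0.222), and leaving out any 1 of mice 1, 2, 3, 4, 10, 12, 13, 14, 16 or 20 ended the call (highest adjusted p 0.128).
Etv1, Spry2, Spred1, Etv4 and Dusp4 were not called in CA1-like nuclei. Spred1 had a log2 fold change of -0.41 ± 0.23 (SE, adjusted p = 0.400, edgeR), and -0.48 with an adjusted p of 0.0251 once runs of mouse numbers entered the fit. Etv1 had a log2 fold change of -0.21 ± 0.16 (SE, adjusted p = 0.598, edgeR), with 93.9 to 158 CPM in wake and 85.3 to 135 CPM after isoflurane. Spry2 had -0.45 ± 0.18 (SE, adjusted p = 0.168, edgeR), and -0.57 with an adjusted p of 0.0303 once runs of mouse numbers entered the fit. CA1-like nuclei of mice 1 to 4 came largely from 1 of the 2 CA1-like clusters, 88.0% of whose nuclei were from these mice; its part in the values of mice 3 and 4 was not tested.

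**Figure D3:**
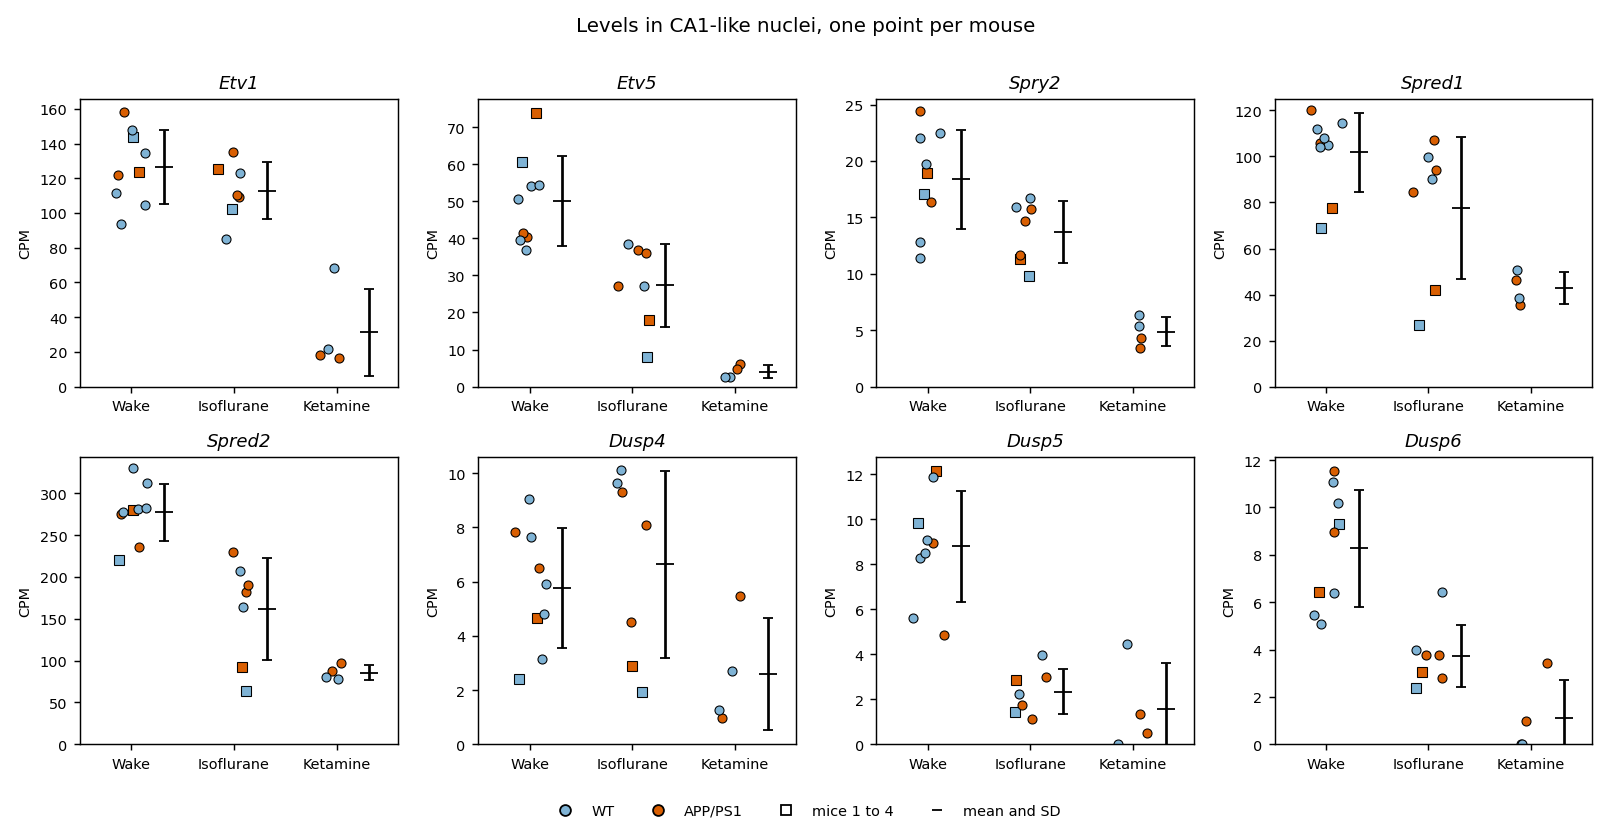
Level (CPM) of 8 members in CA1-like nuclei, 1 point per mouse by state, coloured by labelled genotype, with mice 1 to 4 as squares and the mean and SD to the right. Dusp5 of the isoflurane mice (1.13 to 3.97) lies below every wake mouse (4.84 to 12.1). Etv5, Spry2 and Etv1 of the ketamine mice lie below both other states, and the set was chosen by these low ketamine values.

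In DG granule-like nuclei 4 of 6 members tested were called lower, against 1.11% of all genes. Spred1 had the largest difference: 35.7 to 100 CPM (median 67.1) in wake and 10.6 to 37.4 CPM (median 28.9) after isoflurane, so that only the ends of the ranges met. Its log2 fold change was -1.43 ± 0.28 (SE, adjusted p = 0.0119, edgeR), and -1.35 without mice 1 to 4 (adjusted p = 0.0181).
Etv1, which was not called in CA1-like nuclei, was called here: 28.8 to 80.7 CPM (median 58.2) in wake and 12.9 to 30.3 CPM (median 26.2) after isoflurane, -1.21 ± 0.24 (SE, adjusted p = 0.0150, edgeR). Without mice 1 to 4 it was -0.93 with an adjusted p of 0.202, and leaving out mouse 10 gave 0.0523. Spred2 fell from 177 to 286 CPM to 105 to 163 CPM with no overlap, by 0.65 on the log2 scale (adjusted p = 0.00931, edgeR; 0.118 without mice 1 to 4). Spry2 had -0.88 ± 0.22 (SE, adjusted p = 0.0367, edgeR), which was lost without mice 1 to 4 (-0.89, adjusted p = 0.230) and without any 1 of mice 1, 2, 3, 4, 13, 14, 16, 17 or 18 (highest adjusted p 0.0994). The 6 DG granule markers, summed, were also lower here, 2647 to 3041 CPM in wake and 1886 to 2544 CPM after isoflurane. In CA1-like sums these markers were higher, 67.0 to 104 CPM in wake and 107 to 151 CPM after isoflurane. The 6 CA1 markers overlapped there (776 to 1283 and 723 to 1130 CPM). The part of these shifts in the differences of the members was not tested.

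Interneuron-like nuclei had 4 of 5 members called lower, against 1.26% of all genes. Etv5 was 30.7 to 55.8 CPM (median 47.3) in wake and 5.60 to 20.4 CPM (median 7.69) after isoflurane. The ranges were apart, and the log2 fold change was -2.18 ± 0.26 (SE, adjusted p = 0.000422, edgeR). Spred2 had -1.17 ± 0.15 and Spred1 -1.21 ± 0.22 (adjusted p = 0.000422 and 0.00439, edgeR), and all 3 were called without mice 1 to 4. Spry2 had -0.91 ± 0.22 (adjusted p = 0.0284, edgeR), which leaving out any 1 of mice 2, 3, 4, 10, 16 or 20 ended (highest adjusted p 0.0815), as did leaving out mice 1 to 4 (0.231). Spry4 did not pass the filter in these nuclei and was not tested. It was 4.46 to 11.3 CPM in wake and 0 to 3.57 CPM after isoflurane, on 0 to 4 UMIs per isoflurane mouse. In the other neuronal classes its ranges overlapped.
Subicular or cortical excitatory-like nuclei had 3 of 5 members called lower (2.74% of all genes). Etv5 was 118 to 191 CPM (median 138) in wake and 12.3 to 41.5 CPM (median 32.5) after isoflurane, with the groups far apart, and its log2 fold change was -2.41 ± 0.22 (SE, adjusted p = 2.58e-06, edgeR). Without mice 1 to 4 it was -2.08. Spred2 and Spred1 had -1.43 ± 0.18 and -1.28 ± 0.29 (adjusted p = 0.000166 and 0.0118, edgeR).
The largest fall of any member was that of Etv5 in a cluster of excitatory neurons led by Tshz2 and Dpp10: 25.3 to 103 CPM (median 60.1) in wake and 1.82 to 23.1 CPM (median 5.58) after isoflurane, -3.61 ± 0.40 (SE, adjusted p = 9.13e-06, edgeR). It rests on 1 to 6 UMIs per isoflurane mouse. In this cluster 4 of 7 members were called lower (2.4% of all genes), with Spred1 at -1.53, Spred2 at -1.34 and Spry2 at -1.48; Spry2 was not called without mice 1 to 4 (adjusted p = 0.131).
The cluster led by Rxfp1 and Ndst4 was fitted on 17 mice (8 wake, 5 isoflurane and 4 ketamine), since mice 2, 3 and 4 had fewer than 20 nuclei, so that leaving out mice 1 to 4 removed mouse 1 only. In it 4 of 6 members were called lower (1.5% of all genes), Etv5 by -1.30 ± 0.20 (adjusted p = 0.00156, edgeR) and Spred2 by -0.84 ± 0.13 (adjusted p = 0.00145, edgeR). Dusp5 (-2.01) and Spred1 (-0.67) were called as well. The Dusp5 call ended with runs of mouse numbers as a block (adjusted p = 0.0779, edgeR) and without any 1 of mice 10, 13, 15, 16, 18 or 20 (highest adjusted p 0.249) and the Spred1 call without mouse 10, 15, 16, 17 or 18 (highest adjusted p 0.152). Etv1, a leading gene of this cluster, had 0.05 ± 0.20. In CA3-like nuclei 1 of 7 members was called (0.771% of all genes), Spred2 at -0.79 ± 0.15 (adjusted p = 0.0103, edgeR; 0.0507 without mice 1 to 4).

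Among the non-neuronal classes 1 test was called, Spry2 in astrocyte-like nuclei (2.71% of all genes called lower there), the fitted class where it was highest. It was 82.7 to 127 CPM (median 116) in wake and 58.7 to 81.0 CPM (median 72.2) after isoflurane. The ranges were apart, and the log2 fold change was -0.65 ± 0.12 (SE, adjusted p = 0.00276, edgeR), with -0.76 without mice 1 to 4. The other members of astrocyte-like nuclei were not called: Etv5 had -0.05 ± 0.18, Spred2 0.17 ± 0.12 and Spred1 0.10 ± 0.18. Etv4 (-0.43) and Dusp6 (0.44) were further from 0, in opposite directions. In OPC-like nuclei, the fitted class with the highest wake means of Etv4, Etv5 and Spry4, 0 of 7 members were called (0.186% of all genes), with Etv5 at 119 to 307 CPM in wake and 168 to 242 CPM after isoflurane. Spry4 had -0.75 there, with means of 40.7 CPM in wake and 25.7 CPM after isoflurane. Microglia-like (0.0531%), oligodendrocyte-like (2.55%) and fibroblast-like nuclei (0%) also had 0 members called lower.

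Whether the isoflurane difference itself differed between neurons and astrocyte-like nuclei was tested for the 5 members that passed the filter in all 4 classes involved. The measure was the within-mouse log2 ratio of the neuronal class to astrocyte-like nuclei, with 1 CPM added to each, compared between 9 wake and 7 isoflurane mice by a two-sided exact permutation test, adjusted over 15 comparisons. This test was chosen after the fold changes had been seen. For Spred1 and Spred2 the ratio to astrocyte-like nuclei was lower after isoflurane in all 3 neuronal classes. For Spred1 the differences were -0.57 in CA1-like (adjusted p = 0.0126, exact; -0.36 without mice 1 to 4), -1.50 in DG granule-like (0.000437) and -1.31 in interneuron-like nuclei (0.000437). For Spred2 the differences were -1.02 (adjusted p = 0.000437, exact; -0.62 without mice 1 to 4), -0.78 (0.00306) and -1.30 (0.000787). Etv5 differed by -0.87 in CA1-like (adjusted p = 0.0303, exact; -0.35 without mice 1 to 4), -0.88 in DG granule-like (0.0303) and -2.08 in interneuron-like nuclei (0.000787). Etv1 differed in DG granule-like (-1.07, adjusted p = 0.00656, exact; -0.64 without mice 1 to 4) and interneuron-like nuclei (-0.82, 0.0303) and had -0.13 in CA1-like nuclei (0.480). Spry2 had 0.29, -0.12 and -0.13 (adjusted p = 0.231, 0.615 and 0.615, exact), and 0.54, 0.05 and 0.10 without mice 1 to 4. It was also lower in astrocyte-like nuclei.

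No difference between the genotypes was detected for the members. In wake mice 0 of 72 member tests were called between APP/PS1 and WT (0% of all gene-by-class tests were called, edgeR), with 1 member test at an unadjusted p below 0.05 and a smallest adjusted p of 0.961. Under isoflurane 0 of 72 were called (0%, edgeR), with 0 at an unadjusted p below 0.05. For the interaction of genotype and isoflurane 0 of 72 were called (0%, edgeR), with 0 at an unadjusted p below 0.05 and a smallest adjusted p of 0.921. DESeq2 also called 0 members in each. Over all 131022 gene-by-class tests edgeR had 3368, 2537 and 4076 at an unadjusted p below 0.05, and DESeq2 called 0, 2 and 0. Each of these edgeR counts is less than a share of 0.05 of the tests. In CA1-like nuclei the log2 differences between genotypes ranged from -0.44 to 0.23 in wake, with SEs of 0.22 to 0.73. For the isoflurane difference in Etv5, WT and APP/PS1 mice taken alone gave -2.04 ± 0.37 and -2.32 ± 0.37 in interneuron-like nuclei, and -2.51 ± 0.32 and -2.30 ± 0.31 in subicular or cortical excitatory-like nuclei. Both genotypes were called in both classes.

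The other genes of the pathway were counted by list. In CA1-like nuclei isoflurane lowered 0 of 27 core kinases and scaffolds and raised 0, where 1.75% of all genes were called lower and 2.95% higher. Map2k1, which encodes MEK1, had 0.04 ± 0.10 (log2, SE). Of 20 ligands and receptors 1 was lower, the receptor gene Kit (-0.99 ± 0.18, adjusted p = 0.00314, edgeR), while Fgfr1 had -0.31 ± 0.19 and Ntrk2, the BDNF receptor gene, -0.18 ± 0.15. Of 23 adaptors, exchange factors and GTPase regulators 2 were lower, Dab2ip (-0.64) and Nf1 (-0.39; -0.23 with an adjusted p of 0.218 without mice 1 to 4), and 1 was higher, Rasgrf2 (0.67; 0.59 with an adjusted p of 0.170 without these mice). Of 10 other Etv, Spry, Spred and Dusp genes 1 was lower, Etv6 (-0.81; -0.73 with an adjusted p of 0.0871 without mice 1 to 4). Dusp1 of the same list was not called (-0.34 ± 0.30, adjusted p = 0.647, edgeR).
The list of other ERK-induced genes had 7 of 18 lower and 0 higher in CA1-like nuclei, with a median of -0.95. Arc fell by 2.50 (adjusted p = 0.000192, edgeR), Npas4 by 1.59 (0.000403), Egr1 by 1.93 (0.000911) and Fos by 2.96 (0.00437). They are genes that neurons switch on with activity, and how far each depends on ERK was not tested. In DG granule-like nuclei 0 of 19 of this list were called, with Fos at -1.81 (adjusted p = 0.153, edgeR) and Arc at -1.69 (0.0804), while the list of other Etv, Spry, Spred and Dusp genes had 1 higher, Dusp16 (0.74; 0.73 with an adjusted p of 0.198 without mice 1 to 4), and 0 lower of 11 (1.36% of all genes were called higher there).
In the other neuronal classes the list of other ERK-induced genes had 6 of 18 lower in CA3-like, 4 of 14 in interneuron-like, 8 of 14 in subicular or cortical excitatory-like nuclei, 8 of 16 in the Rxfp1-Ndst4 cluster and 7 of 17 in the Tshz2-Dpp10 cluster, with 0 higher in each. Of all genes 1.26%, 1.27%, 2.33%, 0.959% and 2.06% were called higher in these 5 classes, in the same order. In interneuron-like nuclei Fos had -2.38 (adjusted p = 0.0126, edgeR) and Egr1 -1.42 (0.0358, and 0.132 without mice 1 to 4). Npas4 was also called lower there (adjusted p = 0.0249, edgeR), but on 0 to 2 UMIs per isoflurane mouse, and it could not be tested without mice 1 to 4. Of the core kinases and scaffolds 0 were lower in any of the 7 neuronal classes, and 1 was higher, in the Tshz2-Dpp10 cluster. Of adaptors, exchange factors and GTPase regulators 3 of 21 were lower in the Rxfp1-Ndst4 cluster (1.5% of all genes) and 3 of 22 in the Tshz2-Dpp10 cluster (2.4%). Interneuron-like nuclei had 2 of 24 lower (1.26%) and subicular or cortical excitatory-like nuclei 2 of 23 (2.74%). CA3-like (0.771%) and DG granule-like nuclei (1.11%) had 0 lower, and 0 were higher in any of these classes. Among ligands and receptors CA3-like nuclei had 3 lower and 1 higher of 20, subicular or cortical excitatory-like nuclei 2 lower and 1 higher of 16, and interneuron-like nuclei 2 lower of 21. The latter include Egfr, the EGF receptor gene, with -0.89 ± 0.16 (adjusted p = 0.00329, edgeR; 0.0413 without mice 1 to 4). Astrocyte-like nuclei had 3 ligands and receptors higher and 0 lower of 20, and 2 other ERK-induced genes higher and 1 lower of 16, where 4.85% of all genes were called higher and 2.71% lower.

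Under ketamine all 9 members that could be fitted in CA1-like nuclei were below wake, and this is the contrast by which the group was chosen. The median log2 fold change was -1.96, against -0.04 over all genes (9.15% of all genes were called in this comparison). Etv5 was 2.54 to 6.15 CPM in the 4 ketamine mice and 36.8 to 73.9 CPM in the 9 wake mice, a log2 fold change of -3.73 ± 0.44 (SE). It rests on 2 to 10 UMIs per ketamine mouse. Etv1 was 16.4, 18.4, 21.5 and 68.5 CPM in the ketamine mice, the highest being mouse 28, and had -2.22 ± 0.23. Spry2 was 3.41 to 6.35 CPM against 11.4 to 24.4 CPM in wake, -1.96 ± 0.27. For these 3 genes the ketamine mice were below every isoflurane mouse too. The set was chosen by these low ketamine values, so this is a description as well.
Spred1 (-1.25 ± 0.31) and Spred2 (-1.68 ± 0.26) were lower than in every wake mouse, but within the range of the isoflurane mice, where mice 3 and 4 were as low. Dusp5 had -2.54 ± 0.52, on 0 to 5 UMIs per ketamine mouse (0 to 4.47 CPM, against 4.84 to 12.1 CPM in wake). Dusp6 was at 0 UMIs in both WT ketamine mice, of 2011592 UMIs in their CA1-like sums, which is at least 5.58-fold below the WT wake mice on a floor of 3 counts over the group. In the APP/PS1 mice its log2 fold change was -2.10 ± 0.58. Spry4 was at 0 UMIs in all 4 ketamine mice and at 29 UMIs over the wake mice, at least 2.604-fold lower on the same floor.
Against mouse 29 alone, the wake mouse of the same run of numbers, the CA1-like values were -3.26 ± 0.63 for Etv5, -2.004 ± 0.36 for Etv1 and -1.41 ± 0.45 for Spry2, and all 4 ketamine mice were below mouse 29 for each. Markers of fibroblasts, summed over 6 genes, were higher in the CA1-like sums of ketamine mice (70.9 to 187 CPM) than in mouse 29 (49.2 CPM) and overlapped those of the wake mice (24.5 to 136 CPM). In DG granule-like nuclei they were 42.9 to 102 CPM against 35.7 CPM in mouse 29. Astrocyte markers in CA1-like sums were 8.86 to 17.4 CPM against 10.4 to 54.6 CPM in wake. The 6 CA1 markers themselves were 640 to 786 CPM under ketamine, against 776 to 1283 CPM in wake and 1180 CPM in mouse 29. CA1-like nuclei were 7.42% to 7.47% of the nuclei of the ketamine groups and 10.6% to 11.4% of those of the wake groups. The part of these in the result was not tested.
Other ERK-induced genes did not all follow the members under ketamine, again with no test. In CA1-like nuclei Arc was 1.27 to 3.41 CPM in the ketamine mice against 8.48 to 36.4 CPM in wake, and Npas4 was 0 to 2.41 against 8.93 to 18.1 CPM. Egr1 had a lower mean under ketamine (6.30 against 17.1 CPM), with ranges that met at their ends (2.54 to 13.0 and 10.7 to 23.2 CPM). Fos was 0.894 to 21.2 CPM against 1.70 to 18.4 CPM, and Dusp1, another ERK-induced phosphatase gene, 1.79 to 8.19 against 1.60 to 12.6 CPM, so that both overlapped. Of the ketamine mice the 2 WT held 0.894 to 6.35 CPM of Fos and the 2 APP/PS1 11.6 to 21.2 CPM. In astrocyte-like nuclei Fos was 25.1 to 143 CPM under ketamine and 6.09 to 35.5 CPM in wake, and Egr1 was 8.58 to 71.3 and 2.61 to 22.6 CPM, the means being higher under ketamine with overlapping ranges. For Fos, mouse 29 (35.5 CPM) was above both WT ketamine mice (25.1 and 32.9 CPM) and below both APP/PS1 ketamine mice (121 and 143 CPM). Mean Fos was also higher under ketamine in fibroblast-like (1316 against 117 CPM), microglia-like (126 against 18.4 CPM) and oligodendrocyte-like nuclei (53.0 against 18.0 CPM). In the same order, the APP/PS1 means were 2442 against 42.8, 193 against 12.0 and 93.2 against 22.4 CPM. The WT means were 190 against 154, 57.6 against 22.2 and 12.8 against 15.8 CPM, with overlapping ranges in each class. Fibroblast markers in astrocyte-like sums were 266 to 768 CPM under ketamine and 138 to 332 CPM in wake. Their part in the astrocyte-like values was not tested.
In other neurons the same members were low under ketamine, with exceptions. Etv5 was below 0 in all 7 neuronal classes (-3.74 to -1.70 on the log2 scale), as were Spred2 (-1.68 to -1.24) and Spred1 (-1.84 to -1.25). Against mouse 29 alone these were also below 0 in all 7, but Etv5 was -0.67 ± 0.67 in DG granule-like nuclei, where 3 of 4 ketamine mice were below mouse 29, and -1.10 ± 0.68 in the Tshz2-Dpp10 cluster, where Spred2 was -0.71 ± 0.32. The median over the 6 members of DG granule-like nuclei was -1.47 against all wake mice and -0.82 against mouse 29. Spry2 had -1.96 in CA1-like nuclei and 0.08 ± 0.34 in CA3-like nuclei, where its ketamine mice (6.89 to 22.6 CPM) spanned the wake range (7.09 to 14.0 CPM); against mouse 29 it was -0.25 ± 0.60. In astrocyte-like nuclei Dusp6 was higher, 14.6 to 25.3 CPM against 3.48 to 13.4 CPM in wake (1.05 ± 0.30), and in OPC-like nuclei the median over 7 members was -0.00.

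**Figure D4:**
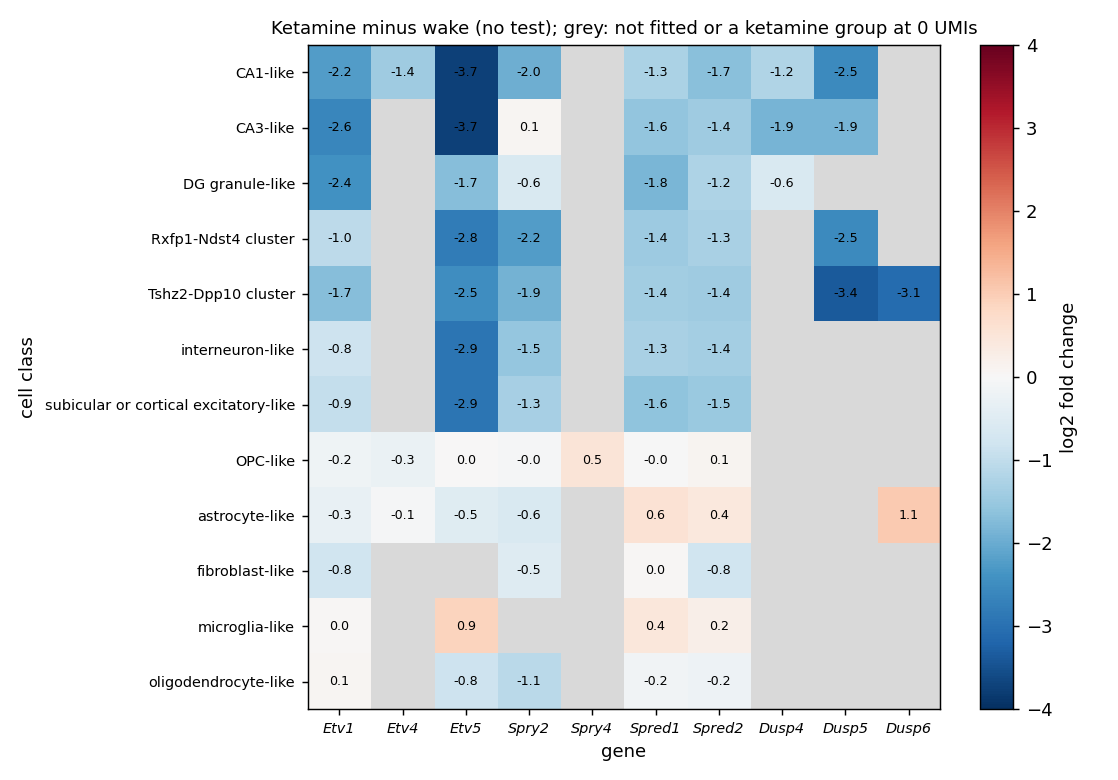
Log2 fold change of ketamine against wake for each member (columns) in each fitted class (rows), neuronal classes above, with no test; grey cells were not fitted or had a ketamine group at 0 UMIs. Neuronal rows are below 0 except Spry2 in CA3-like nuclei (0.08, and -0.25 against mouse 29), and Dusp6 in astrocyte-like nuclei is at 1.05.

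Over the CA1-like sums of the 20 mice, the genes whose log2 levels followed Etv1 most closely were Gda (r = 0.93), Chp1 and Mitd1 (0.92 each). For Etv5 they were Hsd17b12 (0.94), Per2 (0.94) and Bcl2 (0.93), and for Spry2 Gm12940 (0.92), Lims1 (0.91) and Rheb (0.90). These values are over 20 mice of 3 states, with the states setting much of the spread, and are a description.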

How the data were processed

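The authors deposited 1 matrix of raw UMI counts per mouse (Cell Ranger 5.0.0 per the labels; introns included and mm10-2020-A per the methods). The methods also name CellBender; the deposited file headers name Cell Ranger only. The 160777 nuclei had at least 229 genes each, and all were kept before doublet scoring, which marked 6.74%. Nuclei were clustered without the members (2000 variable genes, 30 principal components, 20 neighbours, Leiden resolution 1, leidenalg 0.10.2). Clusters were named from fixed markers, with at least 3 detected. Further naming rules were added after the clusters were seen: a cluster with no own marker among its top 10 genes, or as many of another class of its lineage, stayed unnamed. This kept apart 2 clusters whose closest class by marker score was CA1-like (Tshz2-Dpp10, 2.11% to 9.34% of a group's nuclei, and Rxfp1-Ndst4, 1.67% to 2.86%). Gated one by one, 1239 nuclei of the Tshz2-Dpp10 cluster were CA1-like and 1610 subicular or cortical excitatory-like. In the Rxfp1-Ndst4 cluster these were 859 and 402. Some fibroblast-like clusters held no nuclei of mice 1 to 4.

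Counts were summed per mouse and class, leaving out mice with fewer than 20 nuclei, and fitted with edgeR 4.0.16 (TMM, filterByExpr, quasi-likelihood test, 1 coefficient for each of 6 groups, Benjamini-Hochberg over all genes of a class, threshold 0.05). Isoflurane against wake is the mean over genotypes. Sums per mouse replace the nucleus-level test of the methods. The fit was run on simulated data, which held no shift of mice 1 to 4 or of runs of mouse numbers. It therefore cannot show how the fit handles such shifts. Alternatives were DESeq2 1.42.0, no filter, doublets kept, Leiden resolution 2, nuclei gated one by one, runs of mouse numbers as a block, at least 500 genes, 16 mice, leaving out mice, and names by score alone, the last chosen after seeing the data. Members, lists and tests were chosen with earlier results of these data known. Named genes are all members, list genes called in CA1-like or DG granule-like nuclei (at most 3 per list and direction), receptors and core kinases (1 is not reported here), activity genes, and the 3 genes most like Etv1, Etv5 and Spry2. The methods mention batches, but the labels state none. The floor of 3 counts behind a lower bound covers counting error only.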

Additional observations from a re-analysis of the deposited data

Results flagged for a closer look

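Of 54 groups of 4 or 6 mice examined for a mouse far from the others, 3 held one, where chance gives about 1 in 20. Spred1 in CA1-like nuclei of WT wake mice was 68.9 CPM in mouse 1 and 104 to 115 CPM in the other 5. Etv5 in interneuron-like nuclei of APP/PS1 isoflurane mice was 20.4 CPM in mouse 15 and 5.60 to 7.69 CPM in the other 3. Etv5 in astrocyte-like nuclei of APP/PS1 isoflurane mice was 89.6 CPM in mouse 4 and 123 to 125 CPM in the other 3.

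The isoflurane difference was unequal between a neuronal class and astrocyte-like nuclei for 11 of 15 comparisons (exact permutation test over 16 mice, adjusted). On the log2 scale these were Spred1 (-0.57 in CA1-like, -1.50 in DG granule-like and -1.31 in interneuron-like nuclei), Spred2 (-1.02, -0.78 and -1.30), Etv5 (-0.87, -0.88 and -2.08) and Etv1 (-1.07 in DG granule-like and -0.82 in interneuron-like nuclei). Without mice 1 to 4 all 11 kept their sign, with Etv5 (-0.35), Spred1 (-0.36) and Spred2 (-0.62) in CA1-like and Etv1 (-0.64) in DG granule-like nuclei smaller by more than 1.5 times. The test was chosen after the fold changes had been seen and was run on members only. No share over all genes can therefore be set beside the count.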

How the results depend on the processing

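The 25 member calls under isoflurane became 16 of 54 tests at Leiden resolution 2, and ranged from 17 (without mice 1 to 4) to 33 (no filter, 120 tests) under the other alternatives, and from 19 to 27 when each mouse was left out. All calls in these fits were lower. The share of all genes called is not given for the alternatives, so the member counts cannot be set against it. No genotype or interaction call was made for a member under any of the alternatives run, leaving out each mouse included (0 to 0). Among the named classes, 10 of 10 members kept the class with their highest wake level with doublets kept, while 9 did without mice 1 to 4 and 7 with nuclei gated one by one.

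The ketamine median in CA1-like nuclei was -2.14 with no filter, -1.78 with runs as a block and -1.71 with names by score alone, and -2.11 to -1.88 when each mouse was left out. Dusp4 in CA1-like nuclei turned from 0.18 to -0.088 under isoflurane with runs as a block; it was not called in either fit. The causes of these shifts were not tested. Mouse numbers are unique across groups, so no replicate number pairs the samples. Runs of mouse numbers served as a block, with 29 calls under isoflurane, 24 of the 25 among them, all but Dusp5 in the Rxfp1-Ndst4 cluster. Small UMI sums per mouse limit Dusp5, Dusp6, Etv4 and Spry4.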
